A study of Mus musculus with 3 samples.

Results

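The *Hox* genes were taken as every row of the expression table whose symbol is *Hoxa*, *Hoxb*, *Hoxc* or *Hoxd* followed by a number. The table lists 39 such genes among 15554 rows, 11 of the Hoxa cluster, 10 of Hoxb, 9 of Hoxc and 9 of Hoxd. Expression was measured in NIH3T3, an established line of mouse embryonic fibroblasts, grown in medium with serum and then kept in serum-free IMDM. Cells were left without stimulation (CTRL), or received GDF15 at 100 ng/mL or TGF-β at 4 ng/mL for 24 h, and all 3 groups shared the serum-free culture. RNA samples of a treatment were pooled into 1 stranded mRNA library, so the study has 3 libraries and no replicate of any. Levels are given as FPKM, a fragment number scaled to transcript length and library size, so that genes of different length can be compared.

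Hox genes encode homeodomain transcription factors that give cells of the embryo their position along the head-to-tail axis. They lie in 4 clusters on different chromosomes, and within a cluster their order on the chromosome follows the order of the body regions in which they act. Members of the same number in different clusters are called paralogues. Groups 1 to 3 act in the hindbrain and the pharyngeal arches, groups 4 to 9 in the neck and trunk, and groups 10 to 13 in the lumbar and sacral regions, the distal limb and the urogenital tract. Fibroblasts are known to keep such a code in culture, held by Polycomb complexes on silent genes and by Trithorax complexes on active ones.

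The libraries carried the markers of fibroblasts and few of other cells. All 12 fibroblast markers checked (among them *Col1a1*, *Vim* and *Prrx1*) had an FPKM of at least 8.52 in each library, and 1 of them, *Fbln2*, was higher by more than 2-fold in TGF-β than in CTRL. Of 9 epithelial and 6 endothelial markers, 0 reached an FPKM of 1 in any library, and of 6 leukocyte markers only *Cd68* did. The summed FPKM of the epithelial markers was 0.798 without stimulation, 0.762 with GDF15 and 0.430 with TGF-β. The largest part was *Cdh1*, with 0.685, 0.555 and 0.186. The other markers did not all move the same way, and *Cldn7* was at 0.0482, 0.0583 and 0.143. The genes used to check the response to both stimuli, *Acta2*, *Ctgf* and *Postn*, were higher by more than 2-fold than in CTRL. The paper already reports them as raised by GDF15 in these cells, so for GDF15 this is not an independent check. *Acta2*, for example, had an FPKM of 20.4 without stimulation, 73.6 with GDF15 and 96.1 with TGF-β. Low FPKM values advanced in steps of a single fragment, which put the depth of CTRL at an estimated 18700000 fragments, that of GDF15 at 21800000 and that of TGF-β at 17800000. Numbers of fragments per gene and the intervals below come from these depths. They are estimates that cover counting error only, which is not the difference that a repeated culture would show. With 1 library per group no test between treatments was possible, and no p-value is given. In such bulk RNA, fewer cells that express a gene and less of its RNA per cell cannot be told apart.

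Of the 39 Hox genes, 21 reached an FPKM of 1 in at least 1 library and 19 did so in all 3, whereas 12 were listed at 0 in every library. The remaining members lay between. By library, 20 genes were at or above 1 without stimulation, 21 with GDF15 and 19 with TGF-β. The share of members that reached 1 in any library was 53.8%, against 60.1% of all rows. The share of members listed at 0 throughout was 30.8%, against 18.1% of all rows. Members above 1 formed runs of neighbouring genes in each cluster. These were *Hoxa2* to *Hoxa7*, *Hoxb3* and *Hoxb5* to *Hoxb9*, *Hoxc5* with *Hoxc6*, and *Hoxd3* to *Hoxd9*. Further along their clusters, *Hoxa10* and *Hoxb13* also reached 1. Groups 10 to 13 supplied 1.304% of the summed Hox FPKM without stimulation, 1.76% with GDF15 and 1.35% with TGF-β. Groups 8 and 9 supplied the largest share among the 4 ranges compared, 44.7% without stimulation, 47.9% with GDF15 and 45.2% with TGF-β. Groups 4 to 7 gave 38.3%, 34.6% and 35.7% in the same order, and groups 1 to 3 gave 15.8%, 15.7% and 17.8%.

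**Figure D1:**
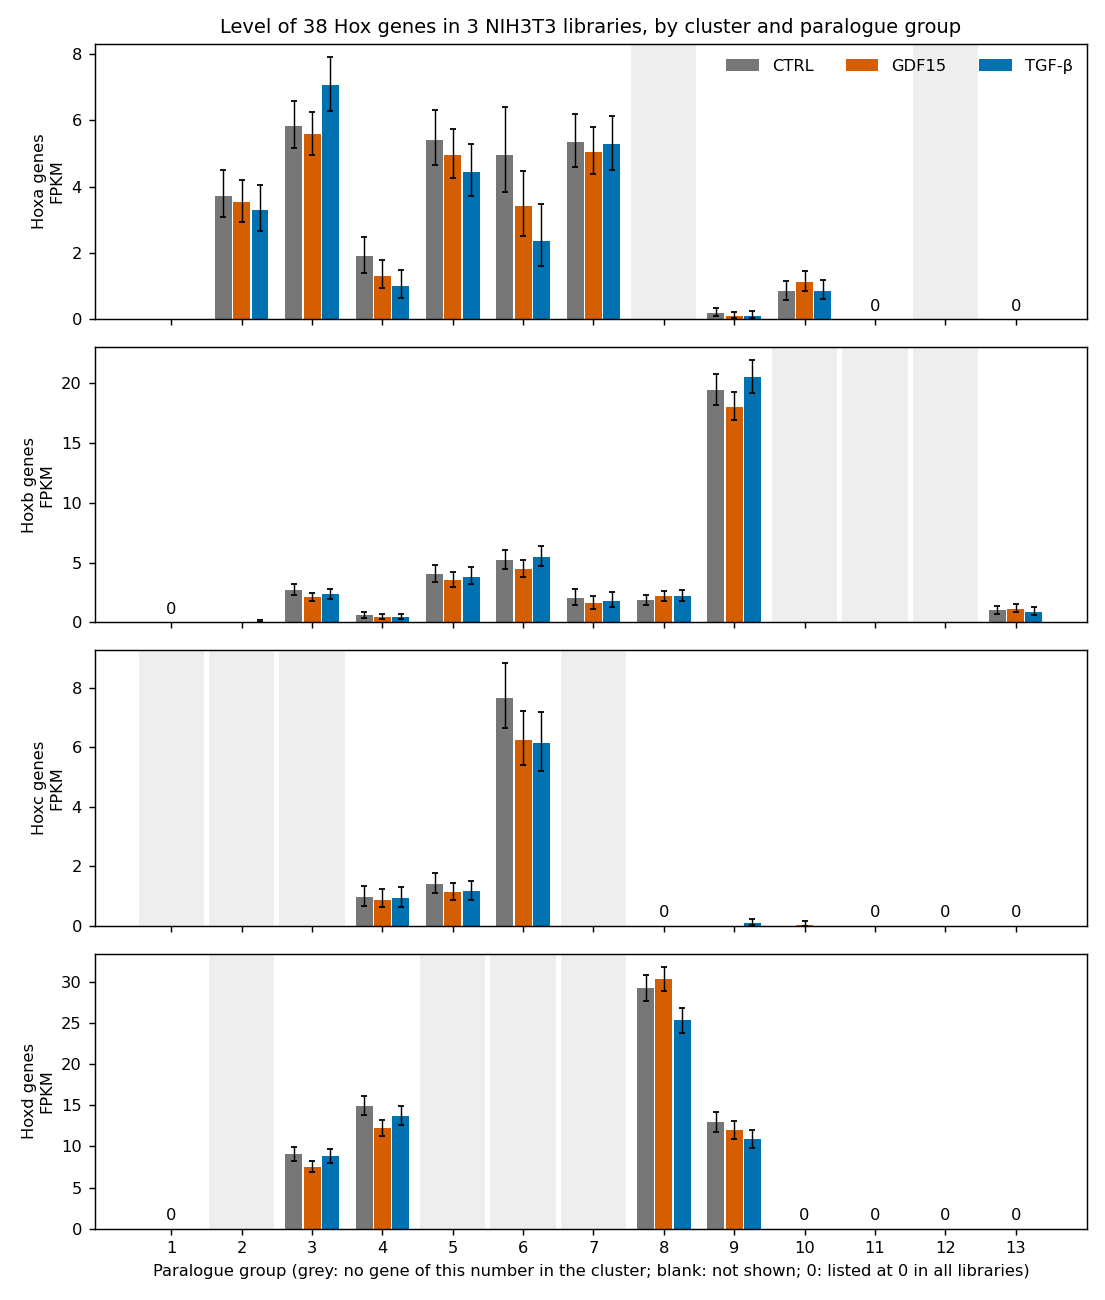
FPKM (linear vertical axes, one scale per cluster) of 38 of the 39 Hox genes by paralogue group (horizontal axis) in CTRL, GDF15 and TGF-β, 1 bar per library, with 95% Poisson intervals of the estimated fragments as error bars. The same genes stand high in the 3 libraries, *Hoxd8* and *Hoxb9* above the others, and the right-hand side of each panel is at or near 0 apart from *Hoxa10* and *Hoxb13*.

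The Hoxd cluster (chromosome 2 of GRCm38) was the most abundant of the 4. Its members summed to an FPKM of 66.1 without stimulation, 62.0 with GDF15 and 58.7 with TGF-β, which was 46.4%, 47.4% and 44.9% of all Hox FPKM. Only 4 of its 9 genes carried this signal, and the other 5 were listed at 0 in each library. *Hoxd8*, a trunk gene and the highest of all Hox genes, had an FPKM of 29.2 without stimulation, 30.3 with GDF15 and 25.3 with TGF-β. In CTRL it stood at the 86.3rd percentile of all rows. *Hoxd9*, which acts in the trunk and the proximal limb, was at 12.9, 12.0 and 10.9. The next gene along the chromosome, *Hoxd10*, was listed at 0 in every library, although it ends only 2621 bases from the start of *Hoxd9*. *Hoxd11*, *Hoxd12* and *Hoxd13*, genes of the distal limb and the genital bud, were also listed at 0. So was *Hoxd1*, at the other end of the cluster, which lies 14537 bases from *Hoxd3*. For the 12 genes listed at 0, the 3 fragments that a count of 0 allows correspond to an FPKM of 0.0590 to 0.203, depending on the gene's length and the library. A listed 0 need not mean that a gene was not expressed. Of 75 rows for ribosomal proteins, 1 (*Rpl10l*, a form known from the testis) was listed at 0 in each library.

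The promoters of the highest Hox gene, of the neighbours *Hoxd9* and *Hoxd10* and of *Hoxd1* are shown, since genes with a high FPKM and genes listed at 0 lie close together in this cluster. Each line gives the 250 bases before the RefSeq start (GRCm38.p6, plus strand), with CG dinucleotides in capitals because CpG-rich promoters are the usual targets of Polycomb and Trithorax complexes. *Hoxd8* (chr2:74704365-74704614) and *Hoxd9* (chr2:74697513-74697762) were above an FPKM of 1, and *Hoxd10* (chr2:74691641-74691890) and *Hoxd1* (chr2:74762730-74762979) were listed at 0.
Hoxd8: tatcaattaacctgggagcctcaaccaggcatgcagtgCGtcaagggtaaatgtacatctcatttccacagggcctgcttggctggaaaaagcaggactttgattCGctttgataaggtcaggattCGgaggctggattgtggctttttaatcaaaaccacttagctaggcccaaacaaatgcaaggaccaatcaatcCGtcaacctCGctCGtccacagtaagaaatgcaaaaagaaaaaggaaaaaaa
Hoxd9: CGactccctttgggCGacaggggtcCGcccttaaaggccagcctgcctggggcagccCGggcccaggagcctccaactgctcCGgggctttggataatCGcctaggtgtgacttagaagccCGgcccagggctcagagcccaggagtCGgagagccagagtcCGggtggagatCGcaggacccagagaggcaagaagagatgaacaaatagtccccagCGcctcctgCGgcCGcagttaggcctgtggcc
Hoxd10: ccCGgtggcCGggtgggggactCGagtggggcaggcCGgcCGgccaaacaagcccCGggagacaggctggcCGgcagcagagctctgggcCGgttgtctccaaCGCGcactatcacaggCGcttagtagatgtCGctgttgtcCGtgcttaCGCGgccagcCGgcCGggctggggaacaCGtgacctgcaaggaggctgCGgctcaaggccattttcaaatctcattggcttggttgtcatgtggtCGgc
Hoxd1: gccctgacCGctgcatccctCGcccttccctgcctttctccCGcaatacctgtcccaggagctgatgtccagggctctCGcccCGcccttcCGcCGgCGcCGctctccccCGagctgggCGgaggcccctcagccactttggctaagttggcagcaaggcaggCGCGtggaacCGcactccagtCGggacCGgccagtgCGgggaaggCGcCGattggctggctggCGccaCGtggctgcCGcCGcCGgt
*Hoxd8* and *Hoxd9* held 6 and 13 CG dinucleotides, and the pair listed at 0 held 20 and 24. The rest of the cluster did not divide in this way. Of its other genes listed at 0, *Hoxd13* held 31, *Hoxd12* held 10, and the starts of *Hoxd11* held 2 and 20. *Hoxd3* and *Hoxd4*, which were above 1, held 12 and 3. The RefSeq table has promoters for 22 of the 39 genes (24 start sites). In the 250 bases before the start, the motif CG (the same on both strands) occurred in 92.1% of the 32851 promoters of the table, with a median of 6 and an upper quartile of 16. The 12 promoters of Hox genes that reached an FPKM of 1 had a median of 12 (3 to 28), and the 9 promoters of genes listed at 0 had a median of 20 (2 to 35). The ranges overlapped widely. *Hoxa13*, listed at 0, held 35, and *Hoxa5*, which was above 1, held 28. This describes the sequence of these windows, and neither DNA methylation nor chromatin was measured.

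*Hoxd3* and *Hoxd4*, genes of the hindbrain and neck, were the other members above 1 in this cluster. *Hoxd4* had an FPKM of 14.9 without stimulation, 12.2 with GDF15 and 13.7 with TGF-β, and *Hoxd3* had 9.02, 7.51 and 8.84. Their levels, above all that of *Hoxd3*, cannot be separated well. In GENCODE M21 both genes overlap on the same strand. Of the 50-base windows of the longest coding transcript of *Hoxd3*, 86.2% also occur in *Hoxd4* or in the joint transcript *Gm28230*. For that of *Hoxd4* the share was 42.2%, and *Gm28230* was the only gene that shared its windows. The reads had 50 bases. How Cufflinks divided them between both genes is not given in the sources used here.

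The Hoxb cluster (chromosome 11) summed to an FPKM of 36.9 without stimulation, 33.6 with GDF15 and 37.6 with TGF-β. More than 50% of it was *Hoxb9*, a gene of the thoracic skeleton and the mammary gland, with 52.7% without stimulation, 53.8% with GDF15 and 54.6% with TGF-β. The FPKM of *Hoxb9* was 19.4 without stimulation, 18.1 with GDF15 and 20.5 with TGF-β, from an estimated 862, 934 and 868 fragments. Its 95% counting intervals in GDF15 (16.9 to 19.3) and in TGF-β (19.2 to 21.9) barely touched. *Hoxb5* and *Hoxb6*, neck and trunk genes, came next. *Hoxb6* had an FPKM of 5.20 without stimulation, 4.46 with GDF15 and 5.46 with TGF-β, and *Hoxb5* had 4.04, 3.52 and 3.84. *Hoxb3* had 2.74, 2.09 and 2.36, although 2250 of its exon bases lie opposite the antisense gene *Hoxb3os*, whose reads can be told apart only if strand was used in counting. The trunk genes *Hoxb7* (2.05, 1.59 and 1.79) and *Hoxb8* (1.84, 2.20 and 2.22) were lower. *Hoxb4*, known for expanding blood stem cells, was below 1 between neighbours above it, with 0.588, 0.485 and 0.474. These correspond to an estimated 25.97, 24.98 and 19.98 fragments. *Hoxb1* was listed at 0 in all libraries, and *Hoxb2* only reached 0.0393 in TGF-β, an estimated 0.9996 fragments.

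*Hoxb13* stood apart from its neighbours. This gene of the tail and the prostate lies 74009 bases beyond *Hoxb9*, at the far end of the cluster. Its FPKM was 1.01 without stimulation, 1.16 with GDF15 and 0.909 with TGF-β, with an estimated 37.9, 50.5 and 32.5 fragments. The values straddle the level of 1, and their counting intervals overlap. The 3 other genes of group 13 were listed at 0 in every library.

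In the Hoxa cluster (chromosome 6), expression was spread over many genes of similar level. The cluster summed to an FPKM of 29.3 without stimulation, 26.96 with GDF15 and 26.1 with TGF-β, and its highest member, *Hoxa3*, gave only 19.9%, 20.7% and 27.1% of this. *Hoxa3*, required for the thymus and the parathyroid, had an FPKM of 5.84 without stimulation, 5.59 with GDF15 and 7.06 with TGF-β. *Hoxa5*, a gene of the neck and the lung, had 5.42, 4.95 and 4.45. *Hoxa7*, a trunk gene, had 5.35, 5.06 and 5.29 and was the steadiest of these. *Hoxa2*, which gives the second pharyngeal arch its identity, had 3.72, 3.53 and 3.30. *Hoxa4*, a neck gene, was lower, with 1.89, 1.31 and 1.01. The level dropped after *Hoxa7*. *Hoxa9*, which starts the posterior part, had 0.181, 0.111 and 0.108, from an estimated 10.2, 7.30 and 5.84 fragments. *Hoxa10*, a gene of the uterus and the lumbar spine, was higher than *Hoxa9*, with 0.846 without stimulation, 1.12 with GDF15 and 0.857 with TGF-β. *Hoxa11* and *Hoxa13* were listed at 0.

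The Hoxc cluster (chromosome 15) was the least abundant, with a summed FPKM of 10.0 without stimulation, 8.26 with GDF15 and 8.27 with TGF-β. *Hoxc6*, a thoracic gene, supplied 76.5%, 75.5% and 74.1% of it. Its FPKM was 7.65 without stimulation, 6.24 with GDF15 and 6.13 with TGF-β. The next gene, *Hoxc8*, lies 4145 bases away and was listed at 0 in all libraries, although its paralogue *Hoxd8* was the highest Hox gene of these cells. *Hoxc5* had an FPKM of 1.39, 1.12 and 1.15, and *Hoxc4* of 0.960, 0.875 and 0.913. Beyond *Hoxc8*, *Hoxc9* was at 0.0739 in TGF-β and *Hoxc10* at 0.0268 in GDF15, an estimated 2.86 and 0.998 fragments, and both were listed at 0 in the other libraries. *Hoxc11*, *Hoxc12* and *Hoxc13* were at 0 throughout.

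Paralogues lay close in level in some groups and far apart in others. In group 6, *Hoxa6*, *Hoxb6* and *Hoxc6* had an FPKM of 4.96, 5.20 and 7.65 in CTRL, and all genes of groups 11 and 12 were listed at 0. In group 9, *Hoxb9* and *Hoxd9* were among the highest genes, and *Hoxa9* and *Hoxc9* were below 1. In group 8, *Hoxd8* stood above *Hoxb8* and *Hoxc8* was listed at 0. The genes of group 4 ran in CTRL from 0.588 (*Hoxb4*) to 14.9 (*Hoxd4*). For *Hoxd3*, exact matches of 50-base windows with *Hoxd4* were not counted apart from those with *Gm28230*. Between the other members the match was small. The largest was that of *Hoxc10*, with 119 windows (6.40%) in a transcript of *Hoxc5*, and *Hoxa6* shared 3 with *Hoxb4*.

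The 5 highest Hox genes (*Hoxd8*, *Hoxb9*, *Hoxd4*, *Hoxd9* and *Hoxd3*) stood in the same order in all 3 libraries, and lower genes changed places. *Hoxc6* was above *Hoxa3* in CTRL and GDF15 and below it in TGF-β. The 10 Hox genes with the highest FPKM in CTRL were also the 10 highest in GDF15 and in TGF-β. Over the 24 members above 0 in all libraries, Spearman's rho of the FPKM was 0.981 between CTRL and GDF15 and 0.984 between CTRL and TGF-β. It was 0.988 between GDF15 and TGF-β. These points share the gene's length and mappability as well as its expression, and they describe the libraries only. The summed FPKM of all members was 142 without stimulation, 131 with GDF15 and 131 with TGF-β. Per cluster, GDF15 stood at 0.919 of CTRL for Hoxa, 0.910 for Hoxb, 0.825 for Hoxc and 0.937 for Hoxd. TGF-β stood at 0.889, 1.02, 0.826 and 0.888.

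Changes were taken as differences of log2(FPKM + 1), with the study's 2-fold criterion (an absolute change over 1) as the call. Between GDF15 and CTRL, 0 of the 39 Hox genes passed it, where 0.289% of all rows did. Between TGF-β and CTRL, 0 of 39 passed, beside 0.913% of all rows. Between GDF15 and TGF-β it was 0 of 39, beside 0.103%. The calls by direction were 0 as well, beside 0.212% of rows higher and 0.0772% lower for GDF15 against CTRL. For TGF-β against CTRL 0.579% were higher and 0.334% lower, and for GDF15 against TGF-β 0.0193% and 0.0836%. With shares this near to 0, the counts of 0 are not a result about Hox genes in particular. Among the 21 members that reached an FPKM of 1, the median change by GDF15 was -0.11, and the 20 plotted as ratios ran from -0.43 (*Hoxa6*) to 0.20 (*Hoxa10*). The median of the 9350 rows at the same level was -0.034. For TGF-β these 20 ran from -0.82 (*Hoxa6*) to 0.24 (*Hoxa3*), and the median of the 21 was -0.11, beside -0.074 for all such rows. Absolute changes had a median of 0.17 by GDF15 and 0.15 by TGF-β, and those of all such rows were 0.15 and 0.16. Lower values than in CTRL were seen for 16 of the 21 genes in GDF15 (76.2%, against 55.7% of rows) and for 15 in TGF-β (71.4%, against 62.7%). These counts depended on the scaling. Relative to rows of similar transcript length (an alternative chosen after seeing the data) 12 were lower in GDF15 and 10 in TGF-β, and relative to rows of similar expression 16 and 12. Both comparisons share the CTRL library. The direct comparison of GDF15 with TGF-β does not involve CTRL, and here 10 genes were higher in GDF15 and 11 were lower (52.4%, against 39.8% of rows). The median was -0.013, beside 0.039 for all such rows.

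**Figure D2:**
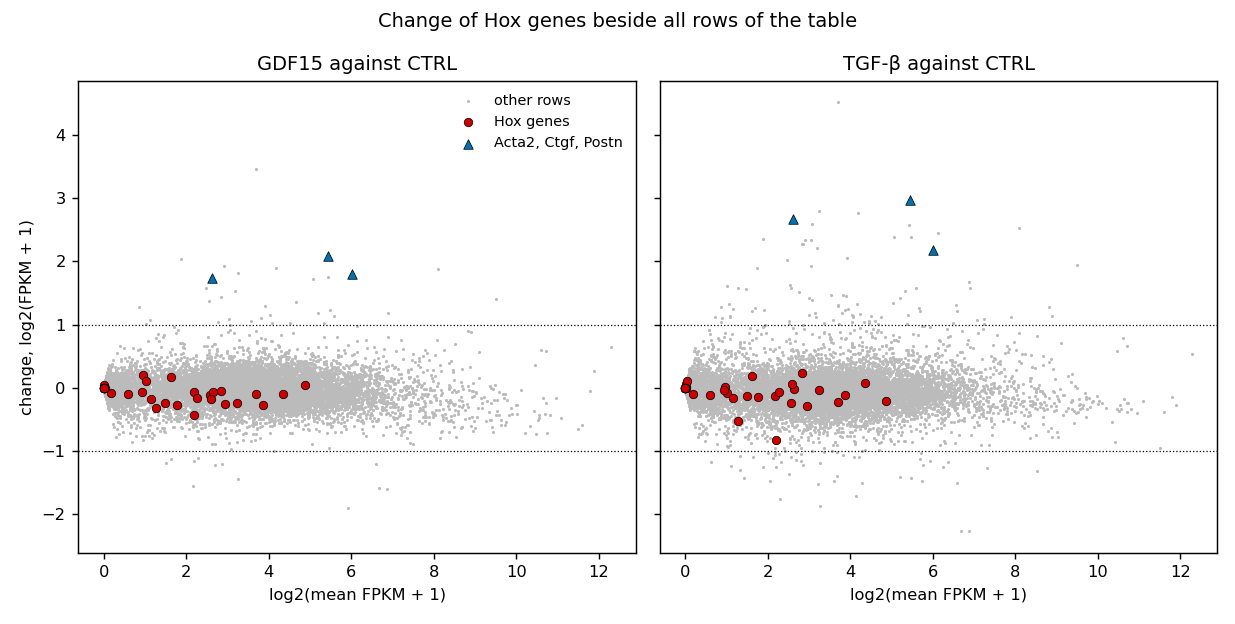
Change on the log2(FPKM + 1) scale (vertical axis) by GDF15 (left) and TGF-β (right) against CTRL, plotted against log2(mean FPKM + 1) for the other rows in grey, 38 Hox genes as red circles and *Acta2*, *Ctgf* and *Postn* as blue triangles. The Hox genes shown lie between the dotted lines of the 2-fold criterion, and the 3 response genes lie above them.

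*Hoxa6* came closest to the criterion. This trunk gene on chromosome 6 (52206288 to 52208722, minus strand) had an FPKM of 4.96 without stimulation, 3.42 with GDF15 and 2.37 with TGF-β. The estimated fragments were 62.5, 50.3 and 28.5. The level in TGF-β was 0.479 of that in CTRL, with a counting interval of 0.300 to 0.761. The change of -0.82 is 3.34 times the local spread below the local median. Local spread is a robust SD (from the median absolute deviation) of the changes of rows with similar mean expression, here 0.23. In TGF-β, *Hoxa6* was the only one of the 21 genes beyond 2 local spreads, and 9.95% of the 9350 rows were. Without a pseudocount its change was -1.06, which passes the criterion. In GDF15, 1 of the 21 genes was beyond 2 local spreads, beside 6.91% of rows, and *Hoxa6* was not. Its ratio to CTRL there was 0.690 (0.460 to 1.003), a change of -0.43. Its neighbours *Hoxa5* and *Hoxa7* changed by -0.24 and -0.014 in TGF-β. *Hoxa6* has the shortest transcript of the expressed members, 874 bases, and short transcripts were lower in both stimulated libraries. The median change of the 457 rows up to 1000 bases was -0.34 in GDF15 and -0.21 in TGF-β. Relative to the running median of rows of similar length, an alternative chosen after seeing the data, *Hoxa6* was at -0.13 in GDF15 and -0.64 in TGF-β.

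Counting intervals that left out a ratio of 1 were found for a few further genes. In GDF15 against CTRL the interval lay below 1 for 4 of the 21 genes (*Hoxb3*, *Hoxc6*, *Hoxd3* and *Hoxd4*) and above 1 for 1, beside 29.7% and 23.1% of the rows tested in the same way. For TGF-β against CTRL it lay below 1 for 5 (*Hoxa4*, *Hoxa6*, *Hoxc6*, *Hoxd8* and *Hoxd9*) and above 1 for *Hoxa3*, beside 35.8% and 18.2% of rows. In these comparisons with CTRL the shares of members are below those of all rows. The width of an interval depends on a gene's fragments, and genes with more of them leave out 1 more readily. Among the 21 genes, the lowest ratios to CTRL after those of *Hoxa6* were those of *Hoxa4*, at 0.536 (0.317 to 0.883) in TGF-β and 0.694 (0.449 to 1.09) in GDF15. For *Hoxd8*, where the fragments are most numerous, the ratio was 1.04 (0.963 to 1.12) in GDF15 and 0.865 (0.798 to 0.938) in TGF-β. Directly compared, *Hoxd8* was 1.20 times as high in GDF15 as in TGF-β (1.11 to 1.295). It was the only member with an interval above 1 in this comparison, beside 26.6% of rows. *Hoxa3*, *Hoxb9*, *Hoxd3* and *Hoxd4* had intervals below 1, which is 19.0% of the 21 genes beside 13.9% of rows. The ratio of *Hoxa3* was 0.792 (0.671 to 0.932), and among the 21 genes it was the only one beyond 2 local spreads, beside 9.16% of rows. On the opposite strand, 1529 exon bases of *Hoxa3* are shared with antisense genes such as *Hoxaas2* and *Hoxaas3*, and 482 are shared on its own strand with *Gm28308*. Their part in these values was not tested. None of these values has a replicate.

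**Figure D3:**
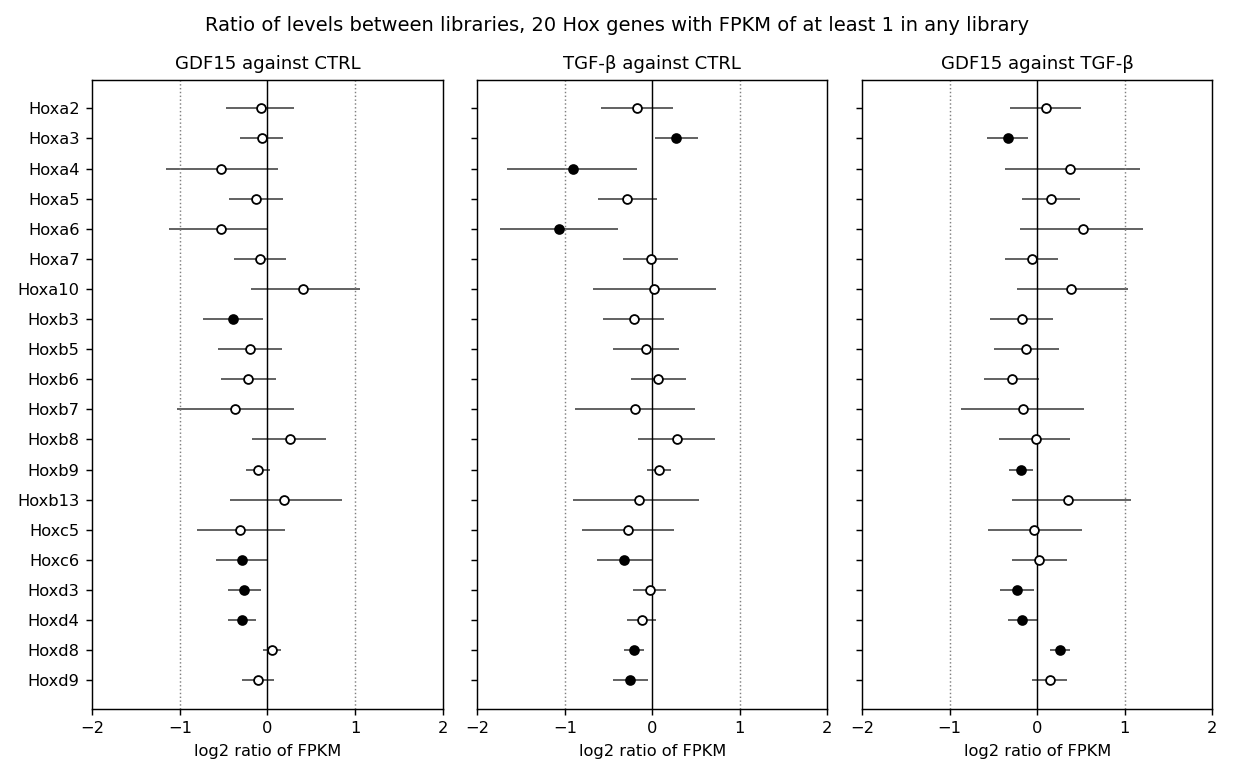
Log2 ratio of FPKM without a pseudocount (horizontal axes) for 20 of the 21 Hox genes with an FPKM of at least 1 in any library, in 3 comparisons, with 95% counting intervals as lines. Filled points have an interval that leaves out a ratio of 1 (log2 ratio 0), open points do not, and dotted lines mark 2-fold. *Hoxa6* in TGF-β lies just past 2-fold on this scale, and the other points lie within it.

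Hox proteins bind DNA together with cofactors of the TALE class, the Pbx, Meis and Pknox homeodomain proteins. Of 9 TALE genes, 8 reached an FPKM of 1, and 0 passed 2-fold in either direction by either stimulus. For this list and those below, the share of all rows that reached an FPKM of 1 in any library was 60.1%. Past 2-fold were 0.289% (GDF15) and 0.913% (TGF-β) of all rows, so that a count of 0 says nothing about a list. *Meis3* was the highest, with an FPKM of 18.1 without stimulation, 14.8 with GDF15 and 14.5 with TGF-β. *Pbx2* followed with 15.8, 12.6 and 12.2, and *Meis1* with 9.38, 9.36 and 8.73. *Pknox1* was steady at 6.98, 6.79 and 6.55. *Pknox2* was listed at 0. The median change of the 8 genes was -0.019 by GDF15 and -0.14 by TGF-β.

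Polycomb complexes, which keep Hox genes silent, and Trithorax complexes, which keep them active, were followed as lists of their genes. Of 18 Polycomb subunits, 17 reached an FPKM of 1 in any library, beside 60.1% of all rows, and 0 passed 2-fold. *Cbx6* was at 51.8 without stimulation, 46.1 with GDF15 and 38.4 with TGF-β, and *Phc2* at 38.1, 34.3 and 36.4. *Eed*, a core subunit of the H3K27 methyltransferase, was at 23.1, 22.5 and 20.6. *Pcgf2*, whose product Mel18 takes part in Polycomb repression of Hox genes, was at 24.8, 17.0 and 16.6, changes of -0.52 and -0.55. All 9 genes for Trithorax subunits and H3K27 demethylases were expressed, and 0 passed 2-fold. *Dpy30* was at 25.5, 18.9 and 22.8, and *Mll1*, the methyltransferase best known for maintaining Hox expression, at 15.6, 15.02 and 13.8. The demethylase gene *Kdm6b* was at 18.7, 16.6 and 13.4.

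Regulators that set Hox expression in the embryo were followed as a list of 18 genes. Of these, 7 reached an FPKM of 1 in any library, beside 60.1% of all rows, and 0 passed 2-fold. The highest was the retinoic acid receptor gene *Rarg*, with an FPKM of 57.4 without stimulation, 46.7 with GDF15 and 43.8 with TGF-β. *Kdm6b*, also in this list, *Rara* and *Rxra* followed, with 18.7, 17.4 and 13.4 in CTRL.

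Of 51 other transcription factors of positional identity, 20 reached an FPKM of 1, 27 were listed at 0 in every library, and 0 passed 2-fold. Of all rows, 60.1% reached 1 in any library and 18.1% were listed at 0 in every library. *Tbx15* and *Tbx18*, genes of the dermis and the trunk mesoderm, had in the same order of libraries 16.7, 18.0 and 14.4, and 12.0, 11.6 and 10.3. *Irx2* had 10.7, 10.4 and 8.78. The median change of the 20 genes was -0.10 by GDF15 and -0.19 by TGF-β, with 14 and 17 of them lower than in CTRL. Over all rows at this level the medians were -0.034 and -0.074, with 55.7% and 62.7% lower.

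**Figure D4:**
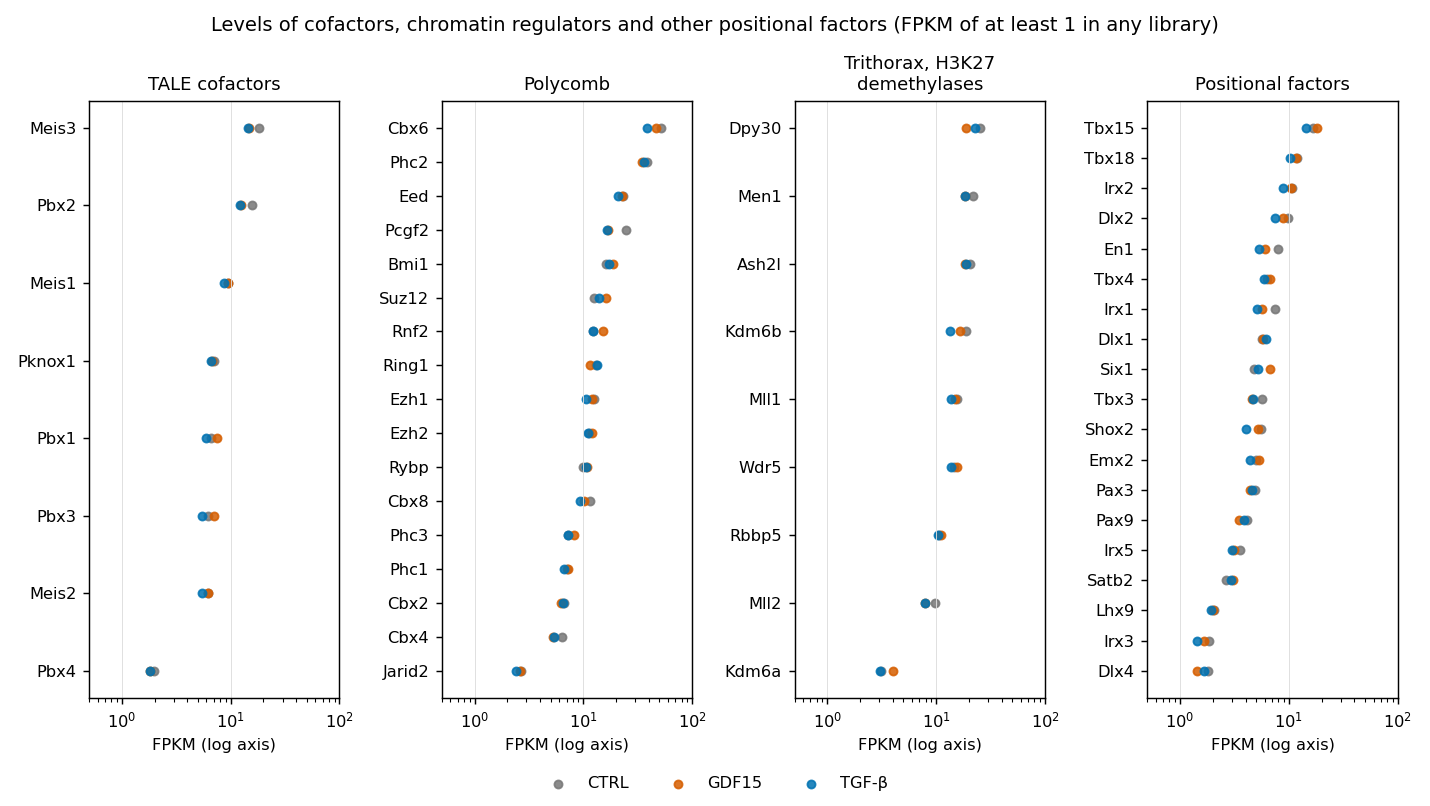
FPKM (log axes) in CTRL, GDF15 and TGF-β of genes with at least 1 in any library among TALE cofactors, Polycomb subunits, Trithorax subunits with H3K27 demethylases, and other positional transcription factors, 1 point per library. The 3 points of a gene lie close together throughout, and no gene shown passes the 2-fold criterion.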

How the data were processed

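NIH3T3 libraries of 3 treatments were analysed, 1 per treatment. The submitters' processing notes name TopHat 1.3.2, Bowtie 0.12.9, Cufflinks 2.0.2 and mm10. The authors calculated FPKM with Cufflinks from single-end reads of 50 bases and deposited values for protein coding genes reviewed in UniProt. The gene annotation and the use of strand are not given in the sources used here. Table columns were matched to treatments by their names.

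Changes are differences of log2(FPKM + 1), and over 1 was called. Depth was estimated from genes with a single GENCODE M21 transcript (2211 rows), using transcript length less 199 bases, the reduction that Cufflinks makes for an assumed mean fragment of 200 bases. At values of up to a few fragments, 61.4% to 64.0% were within 0.05 of a whole number. Fragments per gene use the longest coding transcript. Ratio intervals are exact conditional binomial intervals at 95%, and level intervals are exact Poisson ones. Of 15554 rows, 15463 were matched, and all 39 Hox genes by symbol.

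The members and lists were chosen with earlier results of these data known. Genes named are all Hox members (by range or value), some of the highest members of most lists and members over 2-fold. Higher members of the Trithorax and flanking lists were passed over. *Acta2*, *Ctgf* and *Postn* are named as response check, as are genes that share sequence with a member. *Mll1*, *Cd68*, *Col1a1*, *Vim*, *Prrx1* and the genes named at the cluster ends fall outside this rule and were chosen after their values were seen. The single values of 2 genes are not reported here. Depth, calls and intervals were tested on simulated data. The alternatives were pseudocounts of 0.5, 0.1 and none, a minimum mean FPKM of 1, a common upper quartile and removal of running medians by expression and, added after seeing the data, by transcript length. Tables were handled in pandas 2.3.3 and numpy 2.4.6, intervals computed in scipy 1.17.1 and plots drawn in matplotlib 3.10.9, under Python 3.11.15.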

Additional observations from a re-analysis of the deposited data

How the results depend on the processing

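No paired analysis was possible because the treatments share no replicate numbers beyond a single pooled library, and none could be left out. The number of Hox genes over 2-fold stayed at 0 by GDF15 against CTRL and for GDF15 against TGF-β under all 7 alternatives. By TGF-β against CTRL it was 1 with a pseudocount of 0.1 and 1 without a pseudocount, in both cases *Hoxa6* (-1.03 and -1.06). The number of genes counted as expressed depended on the level required. At an FPKM of at least 3 it was 13 without stimulation, 13 with GDF15 and 12 with TGF-β, and at 0.5 it was 23, 22 and 22. Recomputed for each gene, 438 of 438 values differed from the change reported by less than the distance from the middle to the edge of its counting interval on the log2 scale, and 16 changed sign, all with an absolute change of at most 0.13. Scaling to a common upper quartile moved the median of all expressed rows by 0.029 for GDF15 and 0.058 for TGF-β. For members below an FPKM of 1, counting error limits any statement on change.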

Other observations

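The genes that border the Hox clusters were followed as a list of 29. Of these, 22 reached an FPKM of 1 in any library, beside 60.1% of all rows. By either stimulus 0 passed 2-fold, and the expressed ones had a median change of -0.012 by GDF15 and 0.080 by TGF-β. *Evx1* and *Evx2*, homeobox genes next to the posterior ends of Hoxa and Hoxd, were listed at 0 in every library. *Mtx2*, on the other side of Hoxd beyond *Hoxd1*, had an FPKM of 43.9 without stimulation, 47.8 with GDF15 and 46.1 with TGF-β. *Hibadh*, beyond *Evx1*, had 21.5, 19.8 and 19.0. These genes, apart from the list's counts, were chosen after their values were seen.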
